A study of Mus musculus with 24 samples.

Results

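The genes described here are the receptor and the main enzymes of endocannabinoid signalling: Cnr1, which encodes the cannabinoid receptor CB1, Dagla, Daglb and Napepld, which encode enzymes of synthesis, and Mgll, Abhd6 and Faah, which encode enzymes of breakdown. A gene was included when a row of the array table carried its symbol, and no other symbol, in the probe annotation. All 7 of the 7 listed genes were found, each with 1 probe set, among 19938 genes that had such a row. RNA came from punches of the ventral tegmental area (VTA), taken from brain sections of 0.5 mm. The VTA is the midbrain region that holds the dopamine neurons of the reward system. The mice were wild-type C57BL/6N males aged 10-12 weeks, kept in 12 h light and 12 h dark with chow and water freely available. The 24 arrays, 1 for each mouse, fall into 6 groups of 4 by Zeitgeber time (ZT, hours after lights on): ZT0, ZT4 and ZT8 for the light, or rest, phase and ZT12, ZT16 and ZT20 for the dark, or active, phase. By their labels the groups differed only in the time at which tissue was taken, and none of them carried an altered gene or received a drug or a palatable diet. Times follow the sample labels, which are 4 h apart. The methods text gives a longer interval for this tissue, and every group and peak time below rests on the labels.

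Endocannabinoids are lipid messengers that neurons make on demand from membrane lipids and that travel backwards across the synapse, from the receiving to the sending cell. Diacylglycerol lipases make 2-arachidonoylglycerol (2-AG), and the phospholipase NAPE-PLD is one source of anandamide. Both messengers bind CB1 on nerve terminals, which then release less transmitter. In the VTA, 2-AG made by dopamine neurons acts in this way on their GABA and glutamate inputs, and the brain's CB1 signalling is known for its part in appetite for palatable food. An mRNA in a punch comes mainly from the cell bodies in it, so the values below do not cover CB1 on terminals whose cell bodies lie elsewhere.

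Because the question for each gene is whether its mRNA changed with the time of day, its RefSeq promoter windows (300 bases around a listed start, 250 of them before it, build GRCm38.p6) were searched on both strands for sequence words tied to daily timing. The words were the E-box CACGTG, which the clock factors CLOCK and BMAL1 bind, the D-box TTATGTAA or TTACGTAA, and the palindromic glucocorticoid response element. No word overlapped another in these windows. Of the members, 6 had entries, with 10 windows in all. Dagla had none. The E-box stood in 1 window of Cnr1 and in 1 window of Mgll, that is in 2 of 10 windows, where 7.15% of all 32851 windows held it. Both stretches are shown because they hold the only matches among the members, with the E-box in capitals. They lie on the plus strand at chr4:33924583-33924612 for Cnr1 and chr6:88724356-88724385 for Mgll, and the first base of the E-box lies at -49 and -44 from the listed start.
Cnr1: aaggctcattaaCACGTGatgggaccacgc
Mgll: gggggccgggcaCACGTGgggccccggcgc

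The whole upstream part of the Mgll window, 250 bases at chr6:88724162-88724411 on the plus strand, gives the setting of its E-box, again in capitals. Its GC content was 68%.
Mgll: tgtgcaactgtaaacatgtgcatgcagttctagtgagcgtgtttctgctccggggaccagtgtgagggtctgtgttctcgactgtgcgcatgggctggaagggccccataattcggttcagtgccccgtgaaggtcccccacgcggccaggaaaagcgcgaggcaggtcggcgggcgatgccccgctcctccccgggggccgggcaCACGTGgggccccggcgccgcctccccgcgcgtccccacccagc

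The D-box and the glucocorticoid response element were in 0 of the 10 windows, where 1.06% and 0.00913% of all windows held them. A match or its absence describes only the letters in these windows.

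Array medians over the 23410 transcripts (probe sets with an annotated gene) ranged from 6.71 to 6.79 on the log2 scale. ZT0 replicate 4 stood apart: its median correlation with the other arrays was 0.970, against 0.988 to 0.993 for the others. Against the average of its 3 fellow ZT0 arrays, 327 transcripts were lower by over 1 log2 unit and 60 were higher by as much. All 9 dopamine neuron markers searched for were measured, Th at a mean log2 level of 7.76 and the dopamine transporter gene Slc6a3 at 8.48, and their averaged level ranged from 7.84 to 8.31 over the arrays. Markers of GABA and glutamate neurons and of glia were measured in the same punches (Gad2 9.63, Slc17a6 9.02), so the values describe mixed tissue. In such tissue, fewer cells of a type and less RNA per cell cannot be told apart. Whether a probe set lay above the array's background was not analysed here, since the table holds 1 summarised value per probe set.

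None of the 7 genes had a called 24-h rhythm in VTA mRNA, and none had a called difference between the early light and the early dark. Their fitted peak-to-trough folds ranged from 1.03 to 1.12 with a median of 1.05, beside 1.07 for the median of all transcripts, and 5 of 7 lay below the median log2 peak-to-trough difference of all transcripts (0.10). A fitted 24-h cosine (limma, moderated F-test, Benjamini-Hochberg adjusted over all transcripts) called 0 of 7 members at an adjusted p under 0.05, where it called 0.0299% of all transcripts. At an unadjusted p under 0.05 it also found 0 of 7, where 8.91% of all transcripts passed. The upper edge of the joint 95% region of the fitted curve lay at 1.15-fold for Faah, 1.16 for Cnr1, 1.18 for Mgll, 1.19 for Abhd6, 1.20 for Daglb, 1.22 for Dagla and 1.28 for Napepld. Curves up to these edges are not excluded by the 24 arrays.

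**Figure D1:**
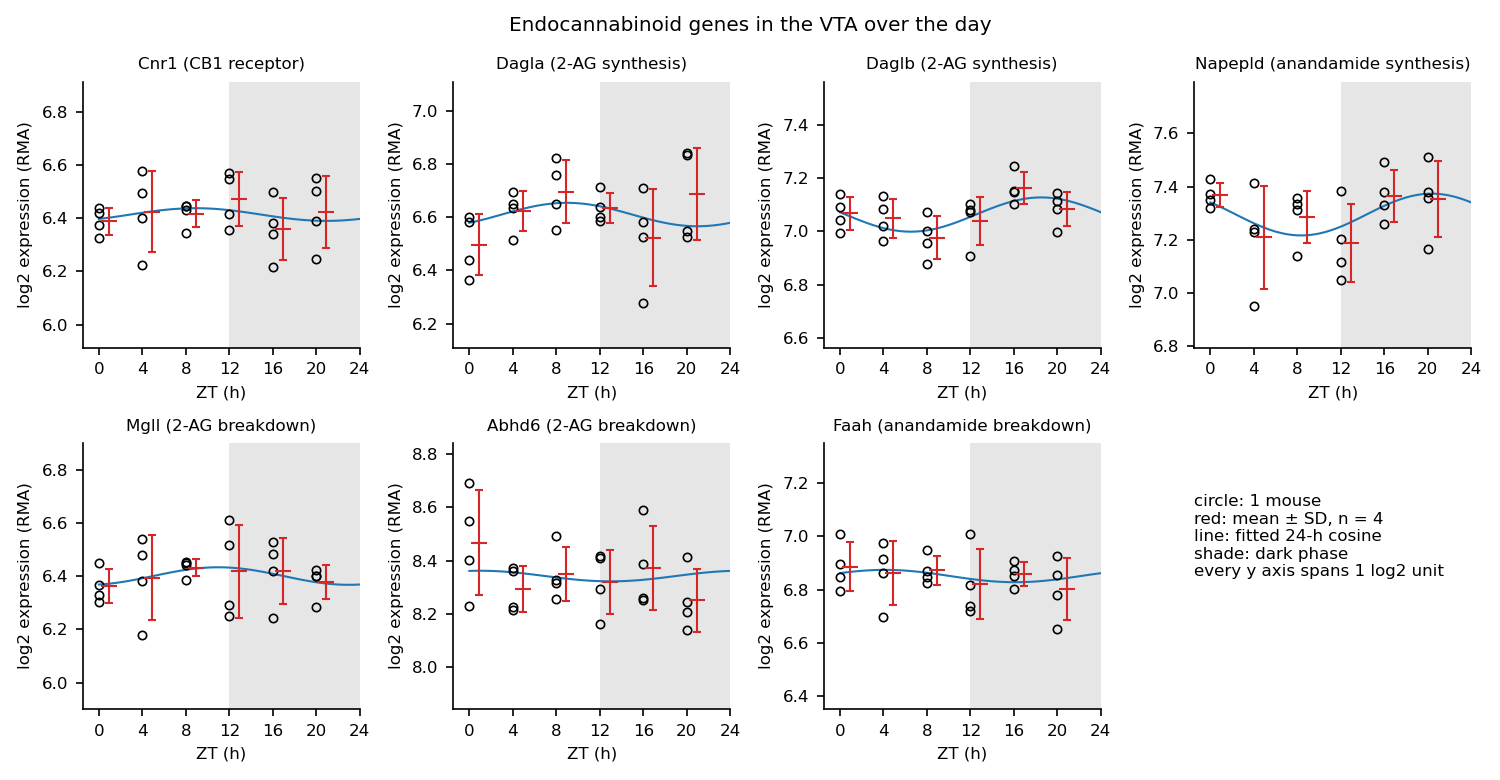
Log2 expression (RMA) of the 7 genes in each mouse against ZT in hours, with 1 circle per mouse, the mean ± SD of 4 mice in red beside each group, and the fitted 24-h cosine as a line. The shade marks the dark phase and every y axis spans 1 log2 unit. The fitted curves are shallow beside the spread of the mice, and only Daglb has a highest time point (ZT16) whose mice all lie above those of its lowest (ZT8).

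Cnr1, the receptor gene, was nearly level over the day. In the light phase its log2 values were 6.42, 6.33, 6.37 and 6.44 at ZT0, 6.40, 6.50, 6.58 and 6.22 at ZT4, and 6.43, 6.45, 6.45 and 6.34 at ZT8. In the dark phase they were 6.42, 6.55, 6.57 and 6.36 at ZT12, 6.38, 6.34, 6.50 and 6.22 at ZT16, and 6.39, 6.50, 6.55 and 6.24 at ZT20. The ranges of all 6 time points overlapped, and single mice at ZT4 held both the highest value of all 24 and nearly the lowest. At every time but ZT0, replicate 3 held the highest value of its group and replicate 4 the lowest. Means ran from 6.47 ± 0.10 at ZT12 through ZT4, ZT20, ZT8 and ZT0 to 6.36 ± 0.12 at ZT16 (SD, n = 4 each), a step of 0.11 from top to bottom. The cosine fit gave a 1.03-fold peak-to-trough change (adjusted p = 0.939, limma).

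Dagla encodes diacylglycerol lipase alpha, the main source of 2-AG at synapses of the adult brain. Its values in the light phase were 6.44, 6.36, 6.60 and 6.58 at ZT0, 6.51, 6.63, 6.70 and 6.65 at ZT4, and 6.65, 6.82, 6.76 and 6.55 at ZT8. In the dark phase they were 6.60, 6.64, 6.58 and 6.71 at ZT12, 6.58, 6.28, 6.71 and 6.53 at ZT16, and 6.53, 6.55, 6.83 and 6.84 at ZT20. The mice at ZT16 and ZT20 were widely spread (SD 0.18 and 0.17), and every pair of time points overlapped. The highest mean was 6.70 ± 0.12 at ZT8, followed by ZT20, ZT12, ZT4 and ZT16, and the lowest was 6.50 ± 0.11 at ZT0 (SD, n = 4 each). The cosine fit gave a 1.06-fold change (adjusted p = 0.876, limma). Without the mice of ZT20, whose spread is given above, the fold was 1.19, which passed an unadjusted 0.05 but had an adjusted p of 0.611 (limma).

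Daglb, the paralogue of Dagla and the form better known from microglia and other immune cells, had the smallest spread within time points of the 7 genes (SD 0.07). Its values in the light phase were 7.00, 7.14, 7.04 and 7.09 at ZT0, 6.96, 7.02, 7.08 and 7.13 at ZT4, and 6.96, 7.07, 6.88 and 7.00 at ZT8. In the dark phase they were 7.07, 6.91, 7.10 and 7.08 at ZT12, 7.10, 7.15, 7.15 and 7.25 at ZT16, and 7.14, 7.00, 7.12 and 7.09 at ZT20. The 4 mice at ZT16 all lay above the 4 at ZT8, and of the 15 pairs of time points 2 were apart in this way. Over all transcripts the median number of such pairs was 0 and the highest 9. The share of transcripts with 2 or more was not computed. The mean was 7.16 ± 0.06 at ZT16 and 6.98 ± 0.08 at ZT8 (SD, n = 4 each), with ZT20, ZT0, ZT4 and ZT12 between them in that order. Daglb was the only member whose highest and lowest time points were apart, 1 of 7, where 15.2% of all transcripts were. The fitted curve peaked at ZT18.5 (SE 1.60 h) with a 1.09-fold change (24 arrays, n = 24, p = 0.0746, adjusted p = 0.599, limma). With the ordinary, unmoderated F-test the same fit gave p = 0.0258 (n = 24, adjusted p = 0.520), so 1 of 7 members passed an unadjusted 0.05 where 8.63% of all transcripts did. Without ZT4 replicate 4 or without ZT20 replicate 2 the moderated test also passed an unadjusted 0.05, with an adjusted p of 0.515 and 0.580 (limma).

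Napepld encodes NAPE-PLD, the phospholipase that releases anandamide and related amides from their membrane precursors. It had the largest fitted change of the 7 genes, 1.12-fold with a peak at ZT20.4 (SE 1.82 h), which also did not pass (n = 24, p = 0.130, adjusted p = 0.662, limma). Its values were 7.37, 7.43, 7.32 and 7.35 at ZT0, 7.42, 7.24, 7.23 and 6.95 at ZT4, and 7.14, 7.31, 7.33 and 7.36 at ZT8. They were 7.20, 7.38, 7.05 and 7.12 at ZT12, 7.38, 7.26, 7.49 and 7.33 at ZT16, and 7.16, 7.38, 7.51 and 7.36 at ZT20. The 4 mice at ZT0 lay close together (SD 0.05), while those at ZT4 spanned from 6.95 to 7.42 (SD 0.19). Means fell in the order ZT0, ZT16, ZT20, ZT8, ZT4 and ZT12, from 7.37 ± 0.05 to 7.19 ± 0.15 (SD, n = 4 each), and all pairs of time points overlapped. Leaving out ZT20 replicate 1 gave a 1.15-fold change that passed an unadjusted 0.05, with an adjusted p of 0.566 (limma).

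Mgll encodes monoacylglycerol lipase, which removes most 2-AG in the brain and sits on the sending side of the synapse. It changed least between time points, with a step of 0.07 from the lowest mean (6.36 ± 0.06 at ZT0) to the highest (6.43 ± 0.03 at ZT8; SD, n = 4 each). The means of ZT16, ZT12, ZT4 and ZT20 lay between these in that order. Values at ZT12 were 6.29, 6.61, 6.25 and 6.52, so mice taken at 1 time differed by more than any 2 means did. Over all 24 arrays the lowest, median and highest values were 6.18, 6.41 and 6.61. The cosine fit gave a 1.05-fold change (adjusted p = 0.896, limma).

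Abhd6, which encodes a membrane lipase that removes a smaller part of 2-AG on the receiving side of the synapse, had the widest step between means (0.22) and the smallest fitted cosine (1.03-fold, adjusted p = 0.968, limma). The highest mean was 8.47 ± 0.20 at ZT0, from values of 8.69, 8.23, 8.55 and 8.40, and the lowest was 8.25 ± 0.12 at ZT20, from values of 8.24, 8.21, 8.41 and 8.14 (SD, n = 4 each). These groups overlapped. ZT16, ZT8, ZT12 and ZT4 followed ZT0 in that order, and ZT16 (8.25, 8.59, 8.39 and 8.26) was nearly as spread as ZT0. Over all arrays the lowest, median and highest values were 8.14, 8.32 and 8.69.

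Faah encodes fatty acid amide hydrolase, which breaks down anandamide. Its means ran from 6.89 ± 0.09 at ZT0 through ZT8, ZT4, ZT16 and ZT12 to 6.80 ± 0.12 at ZT20 (SD, n = 4 each), a step of 0.08. Over all arrays the lowest, median and highest values were 6.65, 6.85 and 7.01, and the highest value of ZT12 (7.01) equalled that of ZT0 to 2 decimals. The cosine fit gave a 1.03-fold change (adjusted p = 0.935, limma). The highest ZT0 value came from replicate 4, the array that stood apart. Without that array the early light minus the early dark was 0.01 for Faah, beside 0.03 with it.

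In every gene, each time point overlapped with its neighbour in the order of means. Only for Daglb did a step between such neighbours exceed the larger SD of the pair, from ZT16 to ZT20 (0.08 against an SD of 0.06). With time point as a factor of 6 levels, which assumes no curve, 0 of 7 members passed at an adjusted or an unadjusted p under 0.05 (limma), where 0.00427% and 5.1% of all transcripts did. The median step from lowest to highest mean was 0.18 for the members and 0.17 for all transcripts.

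**Figure D2:**
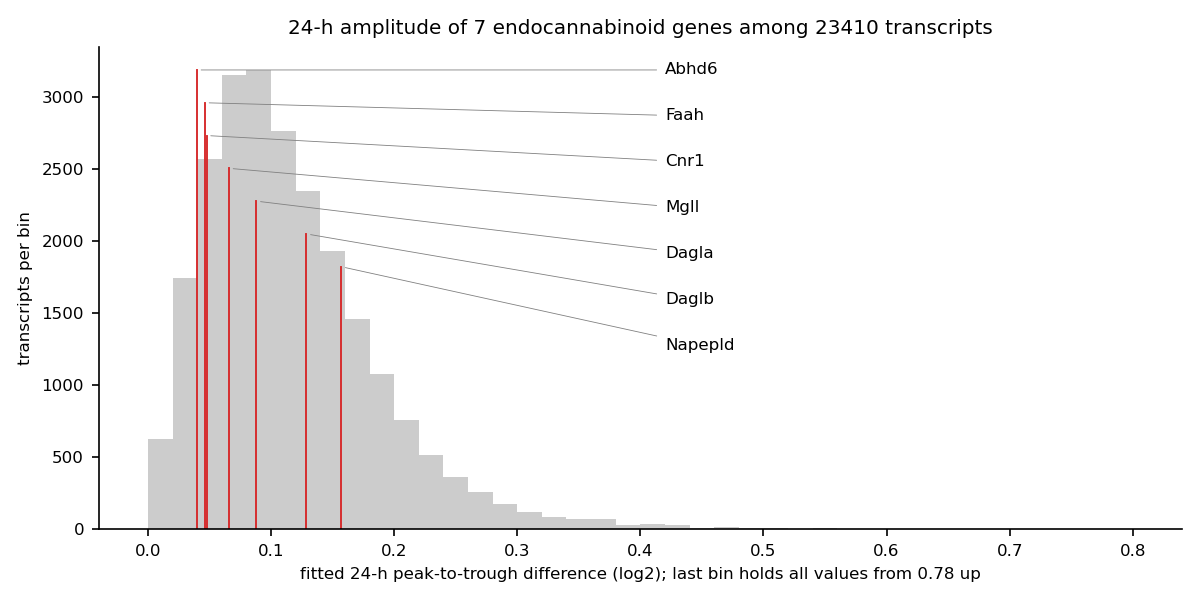
Number of transcripts (y axis) by their fitted 24-h peak-to-trough difference on the log2 scale (x axis, grey bins) with the 7 genes as red lines. Only the x position of a line carries a value, and the heights are set for the labels. Napepld (0.16) and Daglb (0.13) lie above the median of all transcripts (0.10) and the other 5 genes below it.

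The study set food intake and dopamine of the rest phase against the active phase, so the 8 mice of the early light (ZT0, ZT4) were set against the 8 of the early dark (ZT12, ZT16). All 7 genes were within 0.05 log2 units of no difference. The receptor gene Cnr1 ranged from 6.22 to 6.58 in the early light and from 6.22 to 6.57 in the early dark, a difference of -0.01 (95% interval -0.13 to 0.11). For the enzymes of synthesis, the early light minus the early dark was -0.02 for Dagla (-0.15 to 0.11), -0.04 for Daglb (-0.14 to 0.05) and 0.01 for Napepld (-0.12 to 0.15). For the enzymes of breakdown it was -0.04 for Mgll (-0.16 to 0.08), 0.03 for Abhd6 (-0.10 to 0.17) and 0.03 for Faah (-0.08 to 0.15). The signs were mixed within both roles, with 3 of 7 genes above 0. The median difference was -0.01 for the members and -0.01 for all transcripts.

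In this comparison 0 of 7 members passed an adjusted p under 0.05 (0.801 to 0.968, limma over all transcripts), where 0.0342% of all transcripts did. At an unadjusted p under 0.05 the count was also 0 of 7, where 10.2% of all transcripts passed. The early light and early dark values overlapped for each member, and 0.0769% of all transcripts had ranges apart. The intervals reached from -0.16 at the lowest to 0.17 at the highest, and differences inside a gene's interval are not excluded by these 8 mice a side.

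Later times of day gave 1 difference at an unadjusted p. Between the late light (ZT4 and ZT8) and the late dark (ZT16 and ZT20), Daglb was at 7.01 ± 0.08 and 7.12 ± 0.07 (SD, n = 8 each), a difference of -0.11 (SE 0.05, 95% interval -0.21 to -0.01). It passed an unadjusted 0.05 but had an adjusted p of 0.589 (limma). Of the 8 late light values 3 lay below all late dark values, so the groups overlapped. Napepld differed by the same amount with a wider spread, 7.25 ± 0.15 against 7.36 ± 0.11 (-0.11, adjusted p = 0.712, limma). The other 5 genes lay between 0.01 and 0.05, with both enzymes of 2-AG breakdown among them. Thus 0 of 7 members passed at an adjusted p, where 0% of all transcripts did, and 1 of 7 at an unadjusted p, where 7.69% did. Over the whole light against the whole dark phase, 0 of 7 passed at either level, where 0.0256% and 11.3% of all transcripts did, and Daglb had the lowest difference (-0.06, adjusted p = 0.544, limma).

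**Figure D3:**
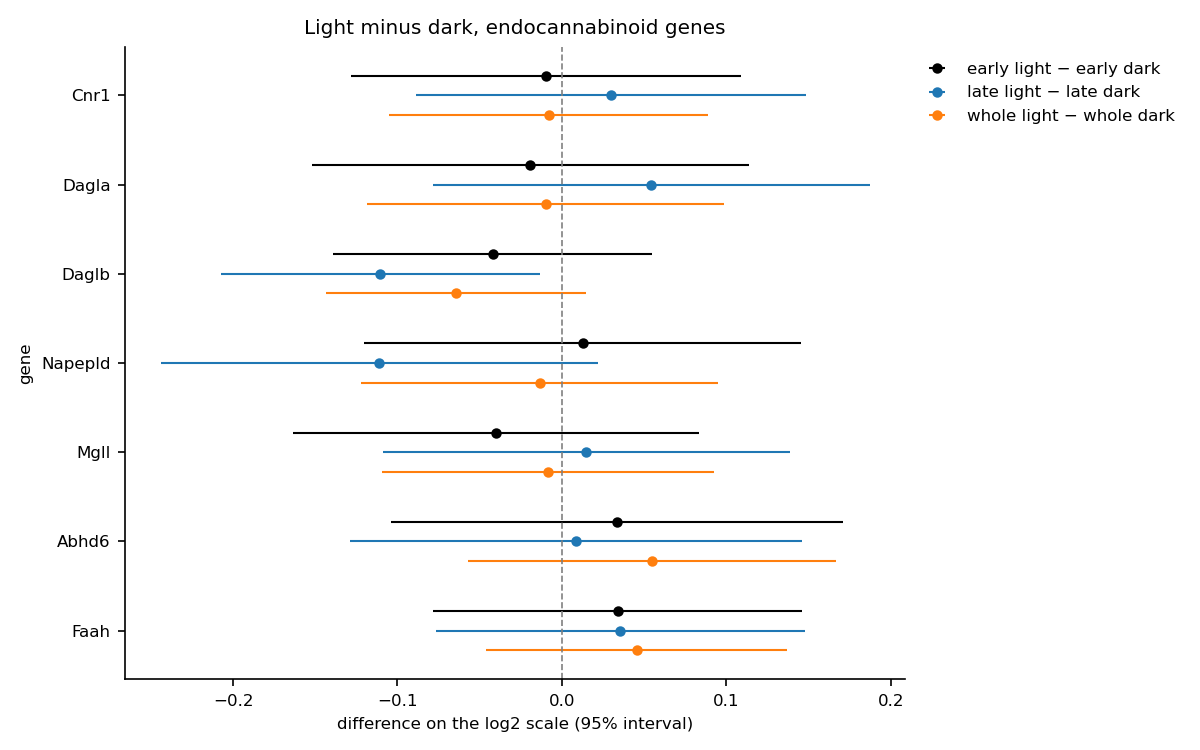
Difference in log2 expression, light minus dark, for each gene with its 95% interval, for early light and early dark (black), late light and late dark (blue) and the whole phases (orange). The late difference of Daglb (-0.11) has the only interval that leaves out 0, and the 3 comparisons share mice.

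The wider endocannabinoid pathway was described with 32 further genes, all of them measured: 8 receptors and CB1 partners, 14 genes of synthesis, 6 of breakdown and 4 carriers. In the rhythm fit 1 of 32 passed at an adjusted p under 0.05 and 4 at an unadjusted p, where 0.0299% and 8.91% of all transcripts did. The latter count fell to 2 without ZT4 replicate 1, ZT4 replicate 2, ZT8 replicate 2 or ZT20 replicate 2, and was 3 to 6 without any other array. Between the early light and the early dark 0 of 32 passed at an adjusted p, while 4 were higher and 1 lower in the early light at an unadjusted p, where 4.67% and 5.52% of all transcripts were. Leaving out 1 array gave 3 or 4 higher, or 2 without ZT12 replicate 3. The count of lower genes became 2 when ZT12 replicate 3, ZT4 replicate 3 or ZT0 replicate 2 was dropped, and 0 when replicate 1 or 3 of ZT0, replicate 1 or 2 of ZT4, or replicate 4 of ZT12 or of ZT16 was dropped. Differences lay above 0 for 15 of 32 genes, with a median of -0.02. The receptors and partners had 2 genes higher at an unadjusted p, the synthesis genes 1 higher and 1 lower, the breakdown genes none and the carriers 1 higher.

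The gene that passed was Fabp7, which encodes a fatty acid binding protein of astrocytes that can carry anandamide inside cells. The study already lists Fabp7 among the rhythmic genes of these same arrays, and the wider list was chosen with earlier results known. The call of 1 of 32 in the rhythm fit is thus no independent result about the pathway. The values of Fabp7 were 8.98, 8.66, 8.99 and 7.64 at ZT0, 8.81, 8.83, 8.79 and 8.91 at ZT4, and 8.56, 8.65, 8.41 and 8.60 at ZT8. They were 8.29, 8.38, 8.41 and 7.94 at ZT12, 7.74, 7.30, 7.95 and 7.93 at ZT16, and 8.13, 8.25, 7.94 and 7.78 at ZT20. All mice at ZT4 lay above the highest mouse of the dark phase (8.412 at ZT12), while the lowest mouse at ZT8 (8.413) was level with it. The share of all transcripts for which this held was not computed. The value of 7.64 came from ZT0 replicate 4, the array that stood apart. The fitted fold was 2.03 with a peak at ZT4.46 (SE 0.57 h, adjusted p = 0.00785, limma). The early light exceeded the early dark by 0.71 (SE 0.14, adjusted p = 0.0521), which did not pass. Without ZT0 replicate 4 the difference was 0.86 (SE 0.09, adjusted p = 7.19e-06), and 1 of 32 genes then passed that comparison. Leaving out ZT0 replicate 2 or ZT20 replicate 4 instead gave an adjusted p of 0.0289 and of 0.0487 for that difference (limma).

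Of the other carriers, Fabp5 and Fabp3, which bring endocannabinoids to breakdown enzymes or other sites in the cell, passed an unadjusted 0.05 in the rhythm fit with folds of 1.21 (adjusted p = 0.410) and 1.13 (adjusted p = 0.537, limma). Fabp5 was lowest at ZT20 (8.07 ± 0.08) and highest at ZT4 (8.41 ± 0.14; SD, n = 4 each), with the 4 mice of ZT20 below the 4 of ZT4. Highest and lowest time points were apart in this way for 5 of the 32 genes, where 15.2% of all transcripts were. Among receptors, Gpr119, which binds oleoylethanolamide, had a fitted fold of 1.15 (adjusted p = 0.551) and a difference of 0.17 between early light and early dark (SE 0.06, adjusted p = 0.343, limma). Gpr55, a receptor for lysophosphatidylinositol that some cannabinoids bind, differed by 0.14 (SE 0.06, adjusted p = 0.456), and by 0.11 without ZT0 replicate 4, which no longer passed an unadjusted 0.05 (adjusted p = 0.541, limma). In synthesis, Plcb2, a phospholipase C that forms the diacylglycerol used for 2-AG, differed by 0.15 (SE 0.06, adjusted p = 0.401), and Plaat5, an acyltransferase that makes the precursors of anandamide, by -0.20 (SE 0.08, adjusted p = 0.417, limma). For each of these 4 genes the early light and early dark ranges overlapped. Their mean levels (Gpr119 5.71, Gpr55 6.46, Plcb2 6.37 and Plaat5 5.93) all lay below that of the median transcript (6.76). Without ZT0 replicate 4 the rhythm of Gpr119 no longer passed an unadjusted 0.05 (fold 1.14, adjusted p = 0.612, limma). Its early difference (0.14, adjusted p = 0.403, limma) still did.

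**Figure D4:**
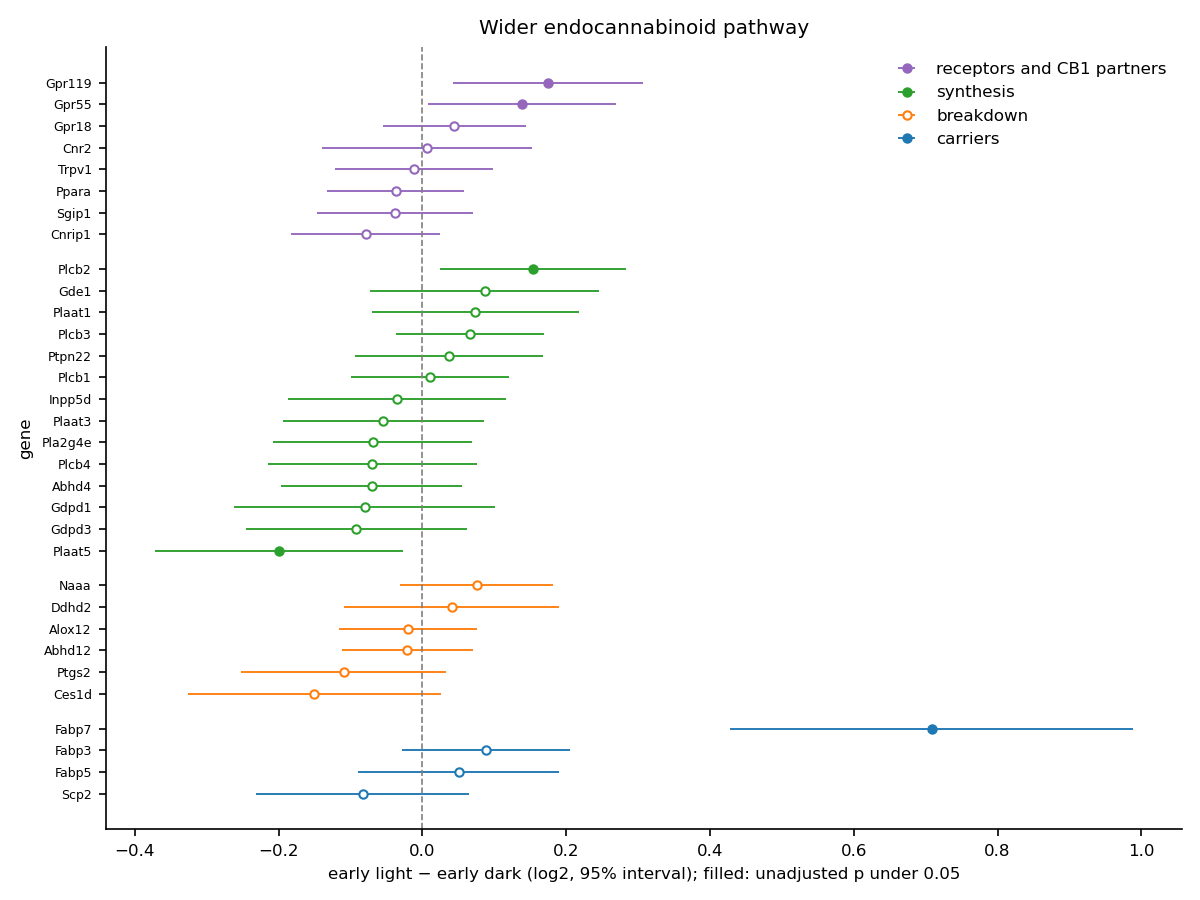
Early light minus early dark (log2, 95% interval) for the 32 genes of the wider pathway, coloured by role and sorted within it, with filled points for an unadjusted p under 0.05. Fabp7 (0.71) lies far to the right of the other genes, which run from -0.20 (Plaat5) to 0.17 (Gpr119).

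The 7 genes were next compared with each other across the 24 mice. Of their 21 pairs, 9 had a positive Pearson r, and r ranged from -0.41 to 0.24. After Benjamini-Hochberg adjustment 0 of 21 pairs passed (lowest adjusted p = 0.686, permutation test, 100000 resamples). Dagla and Abhd6, the 2-AG maker and remover of the receiving cell, had the lowest r (-0.41, permutation p = 0.0450, Spearman's rho -0.28, permutation p = 0.183), and r was -0.17 without the 2 arrays farthest from the median of Dagla. The paralogues Dagla and Daglb had r = -0.18 (permutation p = 0.416), and the anandamide pair Napepld and Faah had r = -0.12 (permutation p = 0.571).

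Because punches can differ in the cells they hold, each gene was also set against the mean level of 8 cell type marker lists. None of the 56 relations passed after adjustment (lowest adjusted p = 0.508, permutation test), and 2 passed at an unadjusted p. The latter count was 5 without ZT4 replicate 4, 4 without ZT12 replicate 2 or ZT16 replicate 4, and 1 without ZT8 replicate 2. Faah had its highest r with the oligodendrocyte markers (r = 0.52, permutation p = 0.00907; rho = 0.35, permutation p = 0.0952), with r = 0.37 without the 2 arrays farthest from the median of the list and r = 0.16 after further quantile normalization. Dagla had its highest r with the markers of GABA neurons (r = 0.47, permutation p = 0.0202; rho = 0.43, permutation p = 0.0365), with r = 0.46 without 2 arrays. Leaving out ZT20 replicate 4 raised the latter to r = 0.66 with an adjusted p of 0.0392 (permutation test). By rank, Cnr1 was as close to the GABA neuron markers (rho = 0.43, permutation p = 0.0355, adjusted p = 0.781). Its Pearson r with them was 0.29 (permutation p = 0.163). The lists' own levels did not separate the times: for GABA neurons they ran from 8.66 to 8.86 in the early light and from 8.65 to 8.93 in the early dark, and for oligodendrocytes from 9.20 to 9.44 and from 9.17 to 9.39. No marker of any list passed the rhythm fit or the early comparison at an adjusted p (limma). The part of cell content in the values of the 7 genes was not tested.

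**Figure D5:**
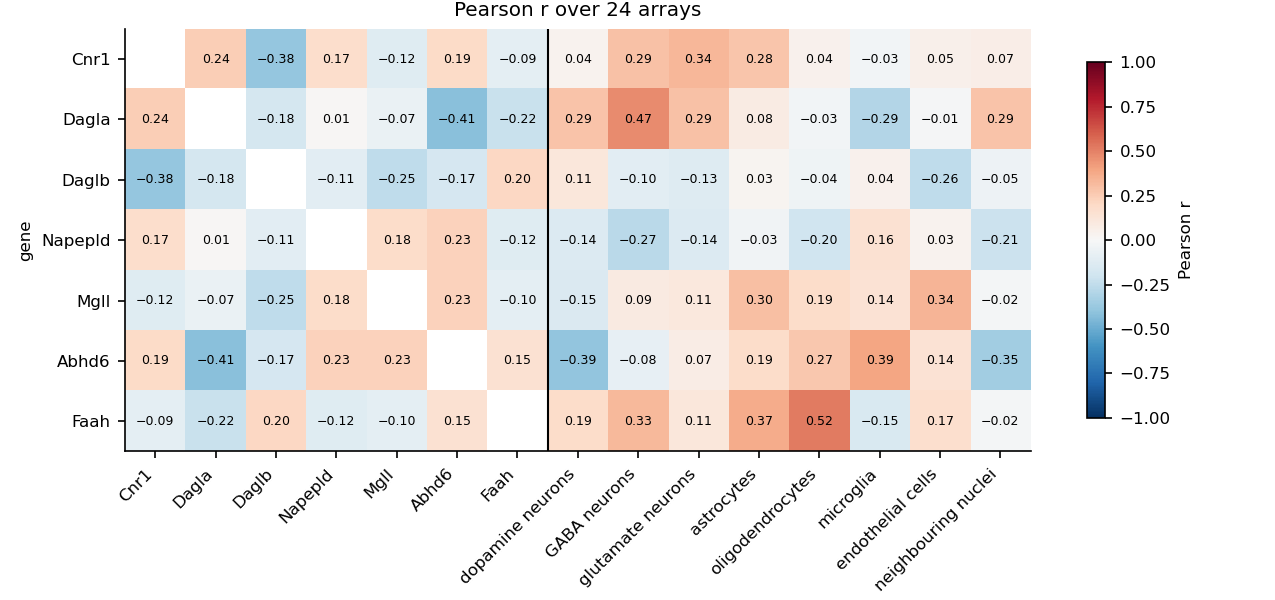
Pearson r over 24 arrays between the 7 genes (left block) and of each gene with the mean level of 8 marker lists (right block), printed in each cell and coloured from blue (-1) to red (1). Most cells are pale, with the highest value for Faah and oligodendrocytes (0.52) and the lowest for Dagla and Abhd6 (-0.41).

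For each gene, the 3 genes whose values were most like it over the 24 arrays were named from 19937 others by Pearson r, as a description with no test. Cnr1 was most like Kcnt1 (r = 0.70), Plppr4 (0.67) and Fam122a (0.66). Dagla was most like Kdelr1 (0.75), Tm7sf3 (0.69) and Wdr1 (0.69), and Daglb most like Olfr1443 (0.75), Kntc1 (0.73) and Mrgprb5 (0.71). Napepld was most like Pdia4 (0.69), Hspa2 (0.68) and Pnpla5 (0.65), and Mgll most like Trappc11 (0.64), Gtf3c3 (0.64) and Wdr60 (0.63). Abhd6 was most like Ywhag, Tfg and Smarca2 (0.81 each), and Faah most like Cxcr2 (0.74), Olfr605 (0.68) and Trim50 (0.67). The 7 sets of 3 shared no gene with each other, and none held another member. Several of the named genes had mean levels below that of the median transcript (6.76). These were Olfr1443 (3.50), Kntc1 (5.06) and Mrgprb5 (5.61), the 3 named for Faah, and Fam122a, Pnpla5 and Wdr60. Each r is among the highest of 19937, and the r that such a pick gives by chance was not computed. All these points share the same 24 arrays and their normalization.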

How the data were processed

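The authors hybridised VTA RNA of 24 mice to Affymetrix Mouse Gene 1.0 ST arrays and deposited the log2 values of all arrays as 1 table. Per the labels these come from RMA in R 2.13.1, a procedure that corrects background, equalises the arrays' distributions and summarises the probes of a set. A division by the mean of each gene, which the methods describe, is not in the deposited values. The build behind the annotation was not given in the sources used here. Groups came from the labelled time points, and 0 columns were left without a sample. Of 35556 probe sets, 23410 had an annotated gene and were tested as transcripts (21789 with 1 gene, 1621 with several). Of these, 21698 had their symbol checked against the RefSeq gene table by gene identifier. No filter on low values was used.

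Tests were run with limma 3.58.1 in R 4.3.3 on the log2 values. The rhythm fit held a 24-h cosine and sine term, and the moderated F-test covered both. This replaced CircWave, the harmonic regression of the study, which was not run. The study used a CircWave p cut-off of 0.05 and its methods name no adjustment. Its rhythmic transcripts and the calls here therefore rest on unlike thresholds. Light and dark were compared in a fit with the 6 time points as groups. Adjustment was by Benjamini-Hochberg over the 23410 transcripts, and a call is an adjusted p under 0.05. Correlations were tested with 2-sided permutations (100000 resamples, numpy 2.4.6), and plots were drawn with matplotlib 3.10.9. Each fit was tested on simulated data. Each mouse is taken as 1 replicate, and the number of arrays limits the precision. Scan dates and spot-level signals were not analysed here, so a batch that follows the time points was not looked for.

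The members, the wider list, the marker lists and the tests were chosen with earlier results of these data known. All members are named, with those of the wider list at an unadjusted p under 0.05 in either fit and the 3 genes most like each member. Marker lists covered neurons of 3 kinds (dopamine, GABA, glutamate), astrocytes, oligodendrocytes, microglia, endothelial cells and neighbouring nuclei. Alternatives were an unmoderated test, a block for the replicate number, the table with unannotated rows, only transcripts with a mean above the median, further quantile normalization, centred arrays, array weights, a robust and trended variance step, a 12-h term, time point as a factor, linear values divided by their mean, other light and dark times, and leaving out each array or time point. No protein table was used, so no protein sequence was searched.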

Additional observations from a re-analysis of the deposited data

Results flagged for a closer look

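Each group of 4 mice was searched for a value far from the other 3, in 42 groups (7 genes at 6 time points). By chance about 1 in 20 groups is marked. Daglb in ZT12 replicate 2 (log2 6.91) lay below the other ZT12 mice, which read 7.07, 7.10 and 7.08. Mgll in ZT20 replicate 4 (log2 6.28) lay below the other ZT20 mice, which read 6.40, 6.40 and 6.42. Without the first of these arrays Daglb differed by -0.06 between the early light and the early dark, beside -0.04 with it, and its adjusted rhythm p was 0.636 (limma). Without the second the adjusted rhythm p of Mgll was 0.946 (limma).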

How the results depend on the processing

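The count of members with a called rhythm stayed at 0 under all 41 alternatives, and the count between early light and early dark stayed at 0 under all 40. Few transcripts were called under any of these settings, as given below. A count of 0 among so few genes could therefore hardly move and says little about stability. With only transcripts above the median level, 4 members were tested (Daglb, Napepld, Abhd6 and Faah), and under the other alternatives all 7. Adjusted rhythm p values of the members lay between 0.515 and 0.9997 throughout. A member passed an unadjusted p under 0.05 in the rhythm fit under 6 alternatives: Daglb with the unmoderated F-test, with array weights, without ZT4 replicate 4 or without ZT20 replicate 2, Napepld without ZT20 replicate 1, and Dagla without the ZT20 mice. Of all transcripts, 8.91% passed at that level in the main fit and 8.63% with the unmoderated F-test. This share was not computed for the others of these 6. Over all transcripts the calls ran from 0 to 19 for the rhythm, beside 7, with 19 after further quantile normalization, and from 0 to 134 for the early light against the early dark, beside 8, with 134 without ZT0 replicate 2. The cause of these shifts was not tested.

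The small differences between early light and early dark changed sign under several settings, and none of them passed an adjusted p. Leaving out 1 array gave -0.0349 to 0.0238 for Cnr1, -0.0605 to 0.0116 for Dagla, -0.0217 to 0.0559 for Napepld and -0.00386 to 0.0728 for Abhd6. With array weights Faah was at -0.00866. Late light against late dark gave 0.0299 for Cnr1, 0.0543 for Dagla, -0.111 for Napepld and 0.0149 for Mgll, and the whole phases gave -0.0136 for Napepld. Without all ZT0 mice the values were 0.00813 for Cnr1, 0.0441 for Dagla, -0.0669 for Napepld and -0.0541 for Abhd6. Without all ZT12 mice they were 0.0466 for Cnr1, 0.0363 for Dagla and -0.0765 for Napepld, and without all ZT16 mice Daglb was at 0.0190.

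Relations among the members stayed at 0 of 21 pairs under all 26 alternatives. Those with the marker lists were 0 of 56, and leaving out 1 array gave 0 to 1. Further quantile normalization gave 3: Dagla with GABA neurons (r = 0.62, adjusted p = 0.0390), Abhd6 with dopamine neurons (r = -0.59, adjusted p = 0.0390) and Abhd6 with GABA neurons (r = -0.72, adjusted p = 0.00168, permutation tests). Abhd6 and GABA neurons had r = -0.08 in the values as deposited, and the cause was not tested.

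With the replicate number as a block, the count of members stayed at 0 of 7 in both fits. The calls over all transcripts were 10 for the rhythm and 14 for the early light against the early dark. Arrays with the same number did not all vary together (mean r of their deviations 0.03, lowest -0.30, highest 0.58, and 6 of 24 arrays were closest to one of their own number), so the numbers were not taken to pair the mice in the main fits. Cnr1 followed the numbers in part, with replicate 3 highest and replicate 4 lowest at every time but ZT0. With the block its adjusted rhythm p was 0.910 (limma). What the numbers stand for was not tested. No member had another probe set of its own, so that alternative gave no value.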

Other observations

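Abhd6, the lipase of the receiving side of the synapse, varied with many more genes across the 24 arrays than the other members did. Of 19937 genes, 259 had a Pearson r over 0.6 with Abhd6 and 265 an r under -0.6, while the other members had between 7 and 38 genes over 0.6 and between 4 and 38 under -0.6. Its 3 most similar genes kept their likeness when the mean of each time point was removed (r = 0.79 for Ywhag, which encodes a 14-3-3 protein, 0.78 for Tfg and 0.77 for Smarca2). The plain r, 0.81 for each over all arrays, was 0.85 for each without ZT0 replicate 4. With the marker lists Abhd6 had r = -0.39 for dopamine neurons (permutation p = 0.0601, adjusted p = 0.631) and 0.39 for microglia (permutation p = 0.0579, adjusted p = 0.631). The counts of genes were not made for genes other than the members, so whether they are unusual on this array is not known. Nor were they made again after further quantile normalization, which moved r of Abhd6 with the GABA neuron markers from -0.08 to -0.72. These relations were noticed after the values were seen, the points share arrays and normalization, and their cause was not tested.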
